A study of Homo sapiens with 9 samples.

Results

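The heat shock factor HSF1 and 9 heat shock proteins were examined in H1299, an established human lung cancer cell line, with and without knockout of BCKDK. The 10 genes were matched by gene name in the deposited expression table of 58735 genes, and all 10 were among the 16426 genes that averaged at least 0.5 FPKM and entered the test. BCKDK encodes the kinase that switches off the branched-chain ketoacid dehydrogenase complex. The series title places it in an axis with BCLAF1, MYC and HK2, and names aerobic glycolysis and Trametinib resistance. The group called Vector holds 3 libraries of cells that received the lentiCRISPR v2 plasmid and are labelled wild type. The groups KO1 and KO2 hold 3 libraries each, labelled as BCKDK Knockout, from 2 monoclonal lines picked by limited dilution, so each knockout group is 1 clone. No treatment, time point or heat shock is given in the labels, and all values below are for the cells as they were grown.

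HSF1 is the main transcription factor of the heat shock response. In unstressed cells it is held inactive, in part by the chaperones HSP70 and HSP90. When unfolded proteins occupy those chaperones, HSF1 assembles into trimers and binds heat shock elements, inverted repeats of the letters GAA, in front of chaperone genes. HSP70 proteins hold and refold clients with J-domain (HSP40) partners and nucleotide exchange factors, HSP90 matures kinases and steroid receptors, and HSPD1 with HSPE1 forms the folding chamber of the mitochondrial matrix. Many tumour cells keep these genes at a high level without heat. Whether HSF1 protein is active is set largely after its RNA is made, so RNA levels do not measure its activity.

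The 10 genes did not move as one block. The inducible HSP70 genes HSPA1A and HSPA1B rose in KO2 and were higher there than in KO1. The constitutive HSP70 gene HSPA8 fell in KO1 and was lower there than in KO2. HSP90AB1, the constitutive HSP90 gene, fell in both clones. HSF1 rose in KO1, a call lost without Vector replicate 1 or 2 or any KO1 library. Its difference of 0.54 on the log2 scale in KO2 did not pass the test (limma adjusted p = 0.0592). Between the clones HSF1 differed by -0.10 (limma adjusted p = 0.729). DNAJB1 rose in KO2. HSP90AA1 passed only between the clones, a call lost without any 1 library of either clone. HSPH1, HSPD1 and HSPE1 passed the test in no comparison.

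Expression was given as FPKM, reads scaled by the authors for exon length and depth, and depth was 16002212 to 17090445 reads per library. Differences are on the log2(FPKM + 1) scale, where changes of low genes come out too small, and a gene was called at a limma adjusted p under 0.05 over all fitted genes. Whether the 3 libraries per group stem from separate cultures is not in the labels, so p-values reflect only how far these libraries vary, possibly for technical reasons. BCKDK itself was at 13.7, 12.9 and 17.5 FPKM in Vector libraries, 1.91, 2.06 and 1.67 FPKM in those of KO1 and 0.628, 0.576 and 0.287 FPKM in those of KO2, and its limma differences were -2.44 and -3.39. The third library of Vector and the third of KO2 (replicate 3 of each) stood apart from their groups: their recovered reads differed from those of the other 2 libraries of the group by a chi-square of 39.1 to 46.4 per degree of freedom, against 2.35 to 6.21 between the other pairs. Where leaving out these libraries changes a call or the sign for one of the 10 genes, both values are given. Of the lung adenocarcinoma markers NKX2-1, NAPSA, SFTPB and SFTPC, none exceeded 0.514 FPKM in any library, although the labels call the cells lung adenocarcinoma. EPCAM, CDH1 and KRT19 did not exceed 0.169 FPKM, and the keratins KRT8 and KRT18 had means of 16.2 and 63.2 FPKM in Vector, of 119.8 and 331.2 in KO1, and 16.2 and 92.2 in KO2. The part of this keratin difference in the KO1 results was not tested. The summed markers of immune, endothelial and fibroblast cells stayed between 0 and 0.721 FPKM. In such bulk RNA a change in every cell and a change in the share of cells with high levels cannot be told apart.

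**Figure D1:**
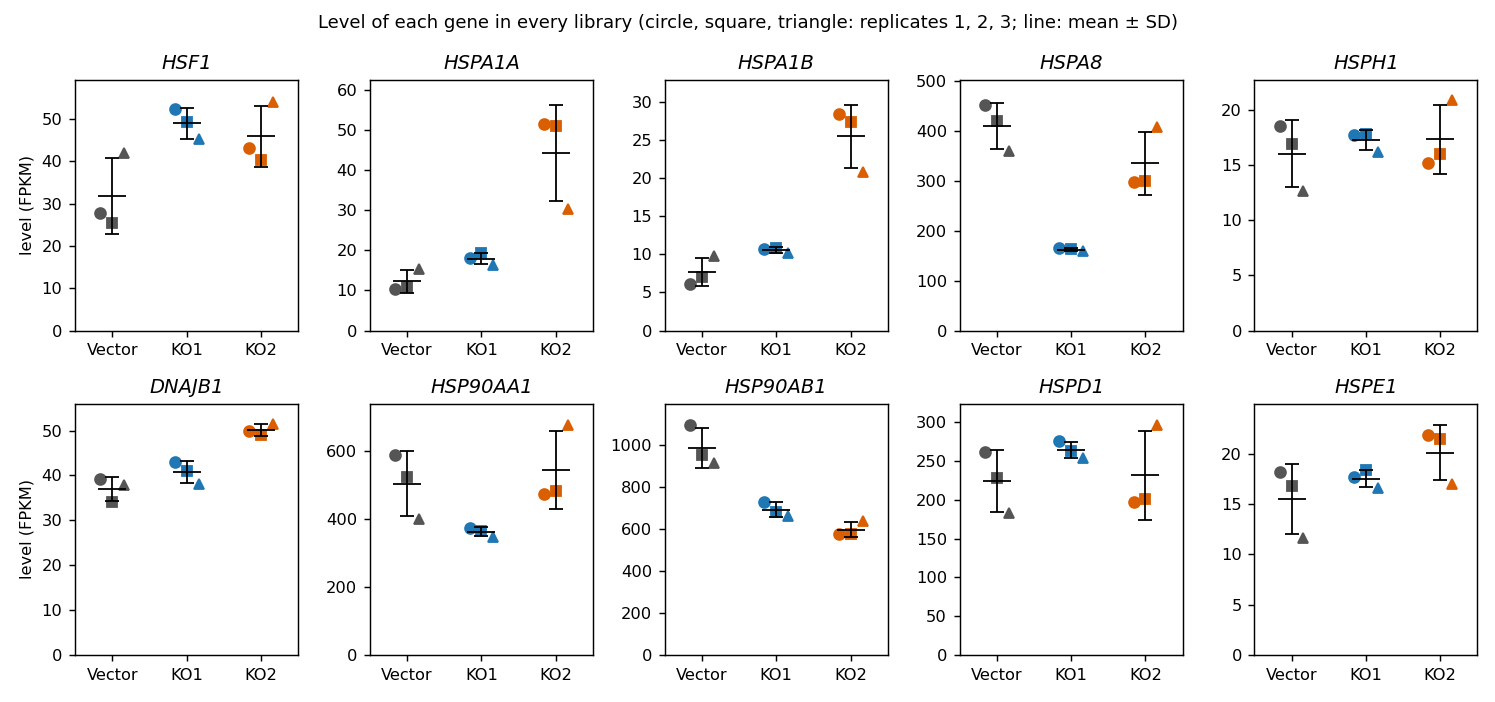
Level of HSF1 and the 9 heat shock proteins in FPKM (y axis, from 0) in each library of Vector, KO1 and KO2. Circles, squares and triangles are replicates 1, 2 and 3, and the bars give the mean ± SD (n = 3). HSPA8 in KO1 sits between 159 and 165 FPKM, below every other library, and HSPA1A in KO2 sits between 30.3 and 51.4 FPKM, above every other library.

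HSF1 (ENSG00000185122, chromosome 8, plus strand) was at 27.8, 25.4 and 42.1 FPKM in the 3 Vector libraries. In KO1 it stood at 52.5, 49.3 and 45.2 FPKM and in the KO2 libraries at 43.2, 40.4 and 54.0 FPKM. All KO1 libraries were above all Vector libraries, while KO2 overlapped both other groups. HSF1 rose in KO1 by 0.64 (SE 0.19, limma adjusted p = 0.0268). In KO2 the difference was 0.54 (SE 0.19, limma adjusted p = 0.0592), and between the clones it was -0.10 (SE 0.19, limma adjusted p = 0.729). The KO1 call was lost when Vector replicate 1 or 2 or any KO1 library was left out, with a highest limma adjusted p of 0.0955 without Vector replicate 2. The KO1 call was also lost without a filter on low genes (limma adjusted p = 0.058). The KO2 difference passed the threshold with library-total scaling, equal medians, limma-voom and a filter at 5 FPKM (limma adjusted p = 0.0432, 0.0448, 0.0299 and 0.0467) and with library weights (limma adjusted p = 0.000111). Without Vector replicate 3, HSF1 differed by 0.86 in KO1 and by 0.75 in KO2, with limma adjusted p of 0.00144 and 0.00303.

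The genes around HSF1 moved as well. The 91 other fitted genes within 5 Mb of it had a median difference of 0.54 in KO2 and 0.11 in KO1. For a further fit, the median deviation of neighbouring genes from their own means was subtracted in each library. HSF1 then differed by 0.05 in KO2 (limma adjusted p = 0.804) and by 0.54 in KO1 (limma adjusted p = 0.0102). It was then lower in KO2 than in KO1 by -0.49 (limma adjusted p = 0.0158). The part of this shared shift in the HSF1 difference was not tested. HSF2, a related factor that can join HSF1 on the same elements, was at 12.1 ± 3.55 FPKM in Vector, against 12.2 ± 0.281 in KO1 and 7.21 ± 0.545 in KO2 (SD, n = 3). It fell in KO2 by 0.64 on the log2 scale (limma adjusted p = 0.0273). HSBP1, a small protein that binds and restrains HSF1, also fell in KO2, with 5.35 ± 0.791 FPKM in Vector and 3.81 ± 0.261 FPKM in KO2 (SD, n = 3, limma adjusted p = 0.0271). Both calls were lost without Vector replicate 1 or 2 and without KO2 replicate 2 or 3, HSF2 also without KO2 replicate 1 and HSBP1 without KO1 replicate 2, with limma adjusted p up to 0.084 for HSF2 and 0.0853 for HSBP1. After subtracting the median of its neighbours, HSF2 differed by 0.04 and HSBP1 by -0.14 in KO2 (limma adjusted p = 0.859 and 0.5235). HSF4 was at 2.38 to 4.08 FPKM as a group mean, and HSF5 was listed at 0 in all Vector and KO2 libraries.

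Heat shock elements, the letters that HSF1 binds, were searched in RefSeq promoter windows of build GRCh38.p14, which run from 250 bases before to 50 bases after a transcription start. A match of 2 units is GAANNTTC or TTCNNGAA, and a match of 3 units is GAANNTTCNNGAA or TTCNNGAANNTTC, which contains 2-unit matches. Each motif of 2 units reads the same on both strands, and each of 3 units is the reverse complement of the other. Of 27305 genes with a window, 16.2% held a 2-unit match and 0.608% a 3-unit match (13.5% and 0.49% of 35116 windows). A window was found for 9 of the 10 genes, HSF1 being the gene without one. Of these 9 genes, 7 held a 2-unit match and 4 a 3-unit match, in 15 windows. The members were picked as heat shock genes, so this count describes them and no test was made. The stretches below lie outside annotated exons, with matches in capitals, and are shown because HSPA1A and HSPA1B moved together while HSP90AB1 and DNAJB1 moved in opposite directions in KO2.
HSPA1A, chr6:31815293-31815463, plus strand: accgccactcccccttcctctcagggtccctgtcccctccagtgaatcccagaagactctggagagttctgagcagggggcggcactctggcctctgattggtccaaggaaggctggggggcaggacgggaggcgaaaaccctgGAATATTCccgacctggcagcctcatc
HSPA1B, chr6:31827488-31827734, plus strand: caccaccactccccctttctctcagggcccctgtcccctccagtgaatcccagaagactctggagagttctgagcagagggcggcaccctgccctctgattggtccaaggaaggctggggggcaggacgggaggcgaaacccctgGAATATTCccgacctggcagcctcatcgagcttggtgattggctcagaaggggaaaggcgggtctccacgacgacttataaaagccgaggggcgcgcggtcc
HSP90AB1, start 3, chr6:44247693-44247865, plus strand: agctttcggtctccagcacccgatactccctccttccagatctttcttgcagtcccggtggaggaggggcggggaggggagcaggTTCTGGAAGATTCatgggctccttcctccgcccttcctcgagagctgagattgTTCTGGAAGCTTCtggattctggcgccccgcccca
DNAJB1, start 2, chr19:14518421-14518647, minus strand: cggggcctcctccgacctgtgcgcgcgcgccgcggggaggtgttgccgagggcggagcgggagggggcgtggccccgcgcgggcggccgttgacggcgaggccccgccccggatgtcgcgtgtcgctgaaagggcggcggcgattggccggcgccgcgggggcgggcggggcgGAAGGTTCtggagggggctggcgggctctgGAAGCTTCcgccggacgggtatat

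HSPA1A and HSPA1B each held 1 match of 2 units, the same 8 letters, beginning at base -106 and at base -105 from the start. The 250 bases before the start were 93.6% identical in the alignment of both genes, with 235 identical, 14 mismatched and 2 gapped positions. HSP90AB1 held 2 matches of 3 units before start 3 and none before its other starts. DNAJB1 held 2 matches of 2 units before start 2 and 1 just after start 3. For HSPA8, HSP90AA1 and HSPD1 the matches lie in windows that annotated exons cover wholly or in part, so only the 3-unit matches are shown.
HSPA8, chr11:123062354-123062366, minus strand: GAAAGTTCCAGAA
HSPA8, chr11:123062179-123062191, minus strand: TTCTGGAAGGTTC
HSP90AA1, start 2, chr14:102087120-102087132, minus strand: TTCCGGAAGGTTC
HSPD1, start 2, chr2:197500073-197500085, minus strand: TTCTGGAAAGTTC
HSPD1, start 2, chr2:197500068-197500080, minus strand: GAAAGTTCTGGAA

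The HSPD1 matches overlap each other. HSPH1 and HSPE1 held no match in their windows. The HSPE1 window begins at base 197500129 of chromosome 2, however. The HSPD1 matches, at bases 197500068 to 197500085, lie just outside it and in front of the RefSeq start of HSPE1 at base 197500379. In GENCODE, HSPE1 begins at base 197499994, so the same matches lie inside that gene. Among the 4 genes with 3-unit matches, HSPA8 and HSP90AB1 fell in KO1, HSP90AB1 fell in KO2, and HSPD1 passed the test in no comparison. The genes that rose in KO2 (HSPA1A, HSPA1B and DNAJB1) held matches of 2 units only, by exact letters. Units with a changed letter were not counted, and a link between the kind of match and the direction was not tested. Between the clones, genes of both kinds were higher in KO2: HSPA8 and HSP90AA1 with 3 units, and HSPA1A, HSPA1B and DNAJB1 with 2.

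**Figure D2:**
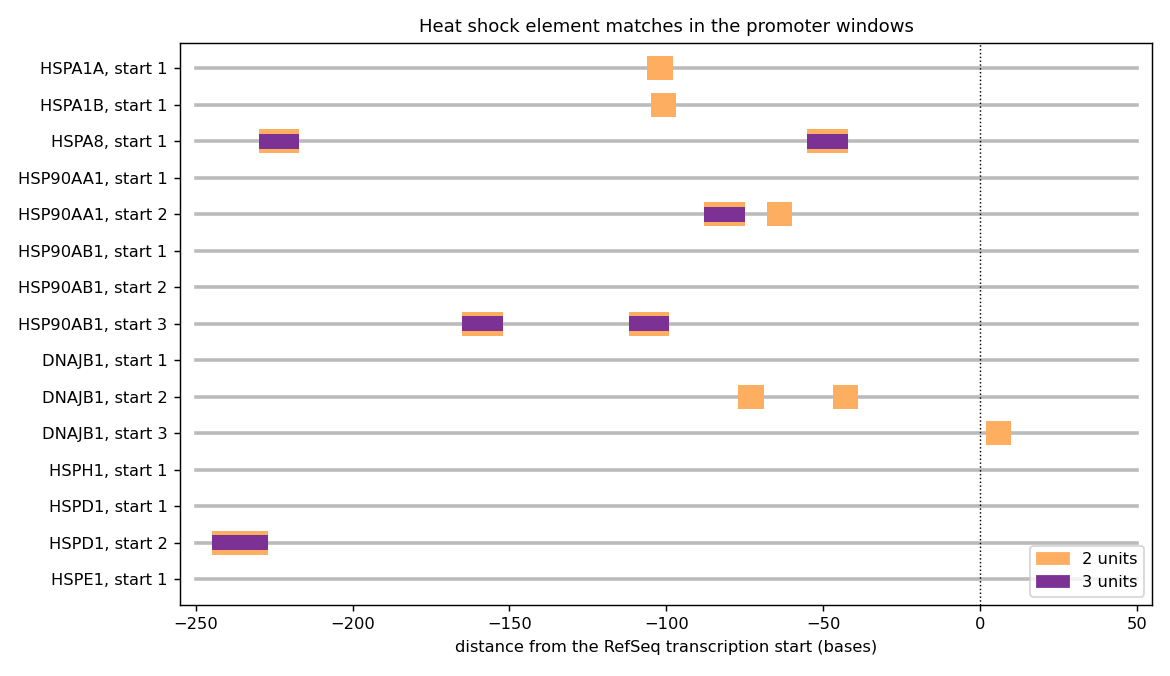
Heat shock element matches in the 15 RefSeq promoter windows of 9 genes, by distance from the transcription start in bases (x axis). Orange blocks are matches of 2 units and purple blocks are matches of 3 units on the grey window, and the dotted line is the start. HSPA8, HSP90AA1, HSP90AB1 and HSPD1 have purple blocks, and HSPH1 and HSPE1 have no block.

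HSPA1A (ENSG00000204389, chr6:31815464-31817946 of hg38, plus strand) encodes the main stress-inducible HSP70. It was at 10.3, 10.9 and 15.4 FPKM in the Vector libraries. The KO1 libraries held 18.1, 19.2 and 16.4 FPKM, and the KO2 libraries 51.4, 50.8 and 30.3 FPKM. The 3 groups did not overlap, and KO2 replicate 3 was the lowest of its group. HSPA1A rose in KO2 by 1.75 (SE 0.21, limma adjusted p = 0.000428) and was higher in KO2 than in KO1 by 1.22 (SE 0.21, limma adjusted p = 0.00275). In KO1 the difference was 0.53 (SE 0.21, limma adjusted p = 0.0834), which missed the threshold. It passed without Vector replicate 3 or without KO2 replicate 3 (limma adjusted p = 0.0208 in the latter case), and differed by 0.70 with both left out.

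HSPA1B (ENSG00000204388, chr6:31827735-31830255, plus strand) is its neighbouring copy and encodes an almost identical protein. It was at 6.15, 7.08 and 9.73 FPKM in the Vector libraries. Libraries of KO1 held 10.7, 10.8 and 10.2 FPKM, and those of KO2 28.4, 27.3 and 20.8 FPKM. The groups again did not overlap and stood in the same order. HSPA1B rose in KO2 by 1.62 (SE 0.17, limma adjusted p = 0.000146) and was higher in KO2 than in KO1 by 1.18 (SE 0.17, limma adjusted p = 0.000818). The KO1 difference of 0.44 (SE 0.17, limma adjusted p = 0.0677) missed the threshold, and passed it without Vector replicate 3 (limma adjusted p = 0.00797) or without KO2 replicate 3. The KO2 calls of both genes held with every library left out in turn. The 205 fitted genes within 5 Mb had a median of 0.07 in KO1 and of 0.01 in KO2.

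The 2 copies cannot be read as independent measurements. Of the 100-base stretches in their transcripts, 67.3% of those of HSPA1A and 72.7% of those of HSPA1B occur in another gene, in the other copy or in AL671762.1, and 36.49% of the HSPA1B exon bases lie in exons of AL671762.1 on the same strand. How reads that fit both copies were counted is not given in the sources used here. Summed, the pair was at 16.4, 18.0 and 25.2 FPKM in the Vector libraries. In KO1 it stood at 28.9, 30.02 and 26.6 FPKM and in the KO2 libraries at 79.8, 78.1 and 51.0 FPKM. The sum differed by 0.52 in KO1 (limma adjusted p = 0.0717), by 1.75 in KO2 (limma adjusted p = 0.000275) and by 1.23 between the clones (limma adjusted p = 0.001725). The ratio of HSPA1A to HSPA1B was 1.603 ± 0.0666 in Vector, against 1.69 ± 0.0816 in KO1 and 1.71 ± 0.218 in KO2 (SD, n = 3), so it differed between groups by less than the spread within KO2.

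HSPA8 (ENSG00000109971, chr11:123057489-123063230, minus strand) encodes HSC70, the HSP70 of unstressed cells, which also strips clathrin from vesicles. It was at 451, 419 and 359 FPKM in the Vector libraries. The KO1 libraries held 165, 163 and 159 FPKM, and the KO2 libraries 298, 300.2 and 407 FPKM. KO1 lay below every library of both other groups, while KO2 replicate 3 fell within the Vector range. HSPA8 fell in KO1 by 1.32 on the log2 scale (SE 0.15, limma adjusted p = 0.000197) and was higher in KO2 than in KO1 by 1.03 (SE 0.15, limma adjusted p = 0.00101). In KO2 against Vector the difference was -0.30 (SE 0.15, limma adjusted p = 0.169), and it passed the threshold without KO2 replicate 3 (-0.45, limma adjusted p = 0.0197). The KO1 call held with every library left out in turn and with the median of the 81 neighbouring genes subtracted. HSPA8 shares no 100-base stretch of its transcripts with another gene.

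The level of HSPA1A and HSPA1B relative to HSPA8 was higher in both clones than in Vector. HSPA1A and HSPA1B together came to 3.65%, 4.30% and 6.997% of the HSPA8 level in the Vector libraries, to 17.5%, 18.4% and 16.8% in KO1, and to 26.8%, 26.0% and 12.5% in KO2. Both clones were above all Vector libraries, and the clones overlapped because of KO2 replicate 3. In KO1 the summed pair differed from Vector by 0.52 and HSPA8 by -1.32, and in KO2 by 1.75 and -0.30. Of these, the pair in KO1 and HSPA8 in KO2 did not pass the test (limma adjusted p = 0.0717 and 0.169). With 3 libraries against 3, an exact permutation test cannot give a p below 0.1, so ratios are given as descriptions.

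**Figure D3:**
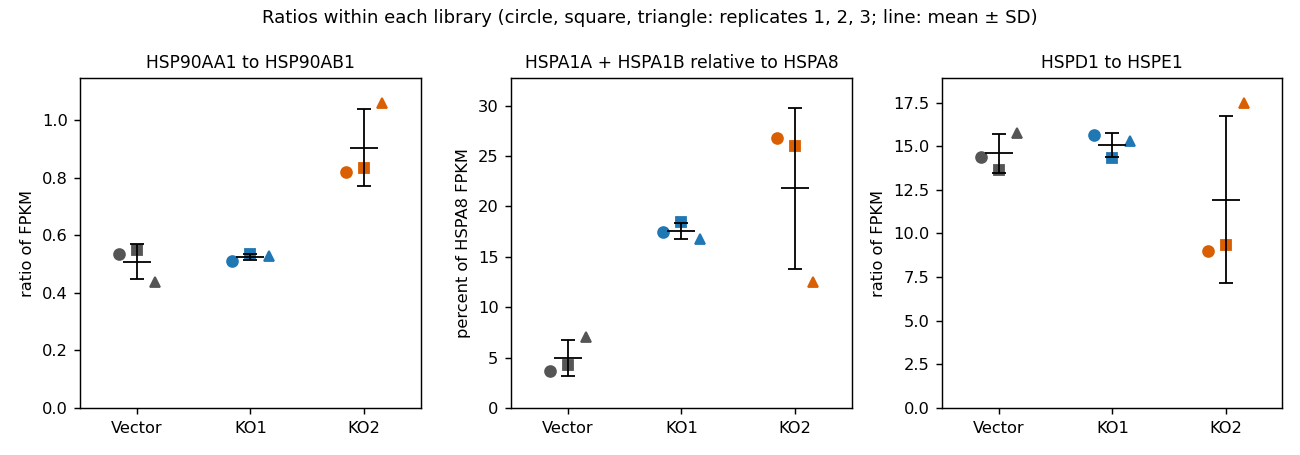
Ratios of FPKM levels within each library of Vector, KO1 and KO2: HSP90AA1 to HSP90AB1, the HSPA1A and HSPA1B sum as percent of HSPA8, and HSPD1 to HSPE1 (y axes, from 0). Circles, squares and triangles are replicates 1, 2 and 3, and the bars give the mean ± SD (n = 3). The HSP90 ratio is 0.820 to 1.06 in KO2 and at most 0.550 elsewhere, and KO2 replicate 3 stands apart in all 3 panels.

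DNAJB1 (ENSG00000132002, chr19:14514770-14529770, minus strand) encodes an inducible J-domain protein that delivers clients to HSP70 and starts its ATPase cycle. It was at 39.3, 34.04 and 37.8 FPKM in the Vector libraries. Libraries of KO1 held 43.0, 41.0 and 38.1 FPKM, and those of KO2 49.9, 48.98 and 51.5 FPKM. KO2 lay above both other groups, which overlapped each other. DNAJB1 rose in KO2 by 0.43 (SE 0.10, limma adjusted p = 0.0105), with a difference of 0.13 (SE 0.10, limma adjusted p = 0.324) in KO1. It was higher in KO2 than in KO1 by 0.30 (SE 0.10, limma adjusted p = 0.0446), a call that was lost without any 1 library of either clone (limma adjusted p up to 0.17 without KO1 replicate 3), with the replicate block, with limma-voom (limma adjusted p = 0.0606) and with neighbours subtracted (limma adjusted p = 0.0735). The KO2 call was kept with each library left out, and was lost with the median of 248 neighbouring genes subtracted (0.28, limma adjusted p = 0.0986) and in the fit of only the 6 libraries compared.

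HSPH1 (ENSG00000120694, chr13:31134974-31162388, minus strand) encodes HSP110, a nucleotide exchange factor of HSP70. It was at 18.6, 16.9 and 12.7 FPKM in the Vector libraries. In KO1 it stood at 17.8, 17.8 and 16.2 FPKM and in the KO2 libraries at 15.2, 15.97 and 20.9 FPKM. All 3 groups overlapped, with replicate 3 the lowest of Vector and the highest of KO2. The differences were 0.11 in KO1 and 0.11 in KO2 (limma adjusted p = 0.621 and 0.651). They turned to -0.04 and -0.18 with Vector replicate 3 and KO2 replicate 3 left out. The 29 fitted genes around HSPH1 had a median difference of 0.41 in KO1, -0.21 in KO2 and -0.60 between the clones. With neighbours subtracted in each library, HSPH1 was higher in KO2 than in KO1 by 0.57 (limma adjusted p = 0.00522).

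HSP90AB1 (ENSG00000096384, chr6:44246166-44253888, plus strand), the constitutive HSP90, had the highest mean level of the 10 genes in every group. It was at 1095, 953 and 914 FPKM in the Vector libraries. The KO1 libraries held 731, 682 and 661 FPKM, and the KO2 libraries 576, 576 and 637 FPKM. The groups did not overlap, Vector being the highest and KO2 the lowest. HSP90AB1 fell by 0.51 in KO1 (SE 0.12, limma adjusted p = 0.0119) and by 0.72 in KO2 (SE 0.12, limma adjusted p = 0.00266) on the log2 scale, and the difference between the clones was -0.21 (SE 0.12, limma adjusted p = 0.225). The KO1 call was lost without KO1 replicate 2 (limma adjusted p = 0.0543) or without KO1 replicate 3, and without a filter on low genes (limma adjusted p = 0.1095), and the KO2 call was kept with each library left out. Without Vector replicate 3 and KO2 replicate 3, HSP90AB1 was lower in KO2 than in KO1 by -0.26 (limma adjusted p = 0.0451).

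HSP90AA1 (ENSG00000080824, chr14:102080738-102139699, minus strand) is the inducible HSP90. It was at 587, 524 and 400.5 FPKM in the Vector libraries. Libraries of KO1 held 374, 364 and 348 FPKM, and those of KO2 472, 482 and 675 FPKM. KO1 lay below all other libraries, and KO2 overlapped Vector. The KO1 difference of -0.46 (SE 0.18, limma adjusted p = 0.0821) missed the threshold. It passed without Vector replicate 3 (limma adjusted p = 0.0218) or KO2 replicate 3, and with library-total scaling (limma adjusted p = 0.03). The 82 fitted genes around HSP90AA1 had a median of -0.49 in KO1, and with neighbours subtracted in each library the KO1 difference was 0.05. In KO2 the difference was 0.11 (SE 0.18, limma adjusted p = 0.707), and -0.22 without Vector replicate 3 and KO2 replicate 3. HSP90AA1 was higher in KO2 than in KO1 by 0.56 (SE 0.18, limma adjusted p = 0.0432), a call that was lost without Vector replicate 2 and without any 1 library of either clone (limma adjusted p up to 0.119 without KO1 replicate 3), with the replicate block, without a filter (limma adjusted p = 0.133) and with neighbours subtracted (0.31, limma adjusted p = 0.325).

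The ratio of HSP90AA1 to HSP90AB1 set KO2 apart. It was 0.536, 0.550 and 0.438 in Vector and 0.511, 0.534 and 0.526 in KO1, and 0.820, 0.836 and 1.06 in KO2. KO2 lay above both other groups, and KO1 lay within the Vector range. These ratios are descriptions and take no account of neighbouring genes. With neighbours subtracted, HSP90AA1 and HSP90AB1 differed by 0.05 and -0.50 in KO1, and by 0.35 and -0.47 in KO2. HSPA8, HSP90AA1 and HSP90AB1 made up 85.9% ± 0.194 of the summed level of the 9 heat shock proteins in Vector, against 76.7% ± 0.145 in KO1 and 79.1% ± 0.542 in KO2 (SD, n = 3). That sum was 2214 ± 272 FPKM in Vector, against 1584 ± 67.0 in KO1 and 1864 ± 255 in KO2 (SD, n = 3). It did not overlap between KO1 and Vector, and it overlapped between KO2 and Vector.

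HSPD1 (ENSG00000144381, chr2:197486581-197516737, minus strand) encodes HSP60, the subunit of the mitochondrial chaperonin ring. It was at 262, 229 and 183 FPKM in the Vector libraries. In KO1 it stood at 276, 263 and 255 FPKM and in the KO2 libraries at 197, 201 and 297 FPKM. The groups overlapped, and KO2 replicate 3 was the highest of all libraries. The differences were 0.25 in KO1, 0.03 in KO2 and -0.22 between the clones (limma adjusted p = 0.332, 0.912 and 0.417). Without Vector replicate 3 and KO2 replicate 3, HSPD1 was lower in KO2 than in Vector by -0.30 (limma adjusted p = 0.0207) and than in KO1 by -0.41 (limma adjusted p = 0.004).

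HSPE1 (ENSG00000115541, chr2:197499994-197503457, plus strand) encodes HSP10, the lid of that ring, and is transcribed away from HSPD1 from a shared promoter region. It was at 18.2, 16.8 and 11.6 FPKM in the Vector libraries. The KO1 libraries held 17.7, 18.4 and 16.6 FPKM, and the KO2 libraries 21.9, 21.5 and 17.0 FPKM. All groups overlapped. The differences were 0.19 in KO1, 0.37 in KO2 and 0.18 between the clones (limma adjusted p = 0.415, 0.128 and 0.446). Without Vector replicate 3 and KO2 replicate 3, the KO2 difference was 0.29 (limma adjusted p = 0.00902) and that between the clones was 0.29 (limma adjusted p = 0.00669). The HSPD1 to HSPE1 ratio was 14.4, 13.6 and 15.8 in Vector, 15.6, 14.3 and 15.3 in KO1, and 8.98, 9.34 and 17.5 in KO2. KO2 replicates 1 and 2 lay below all Vector and KO1 libraries and KO2 replicate 3 above them. The HSPE1 level is uncertain, because 13.2% of its 100-base transcript stretches occur in another gene and 23.93% of its exon bases overlap exons of HSPD1 or HSPE1-MOB4.

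**Figure D4:**
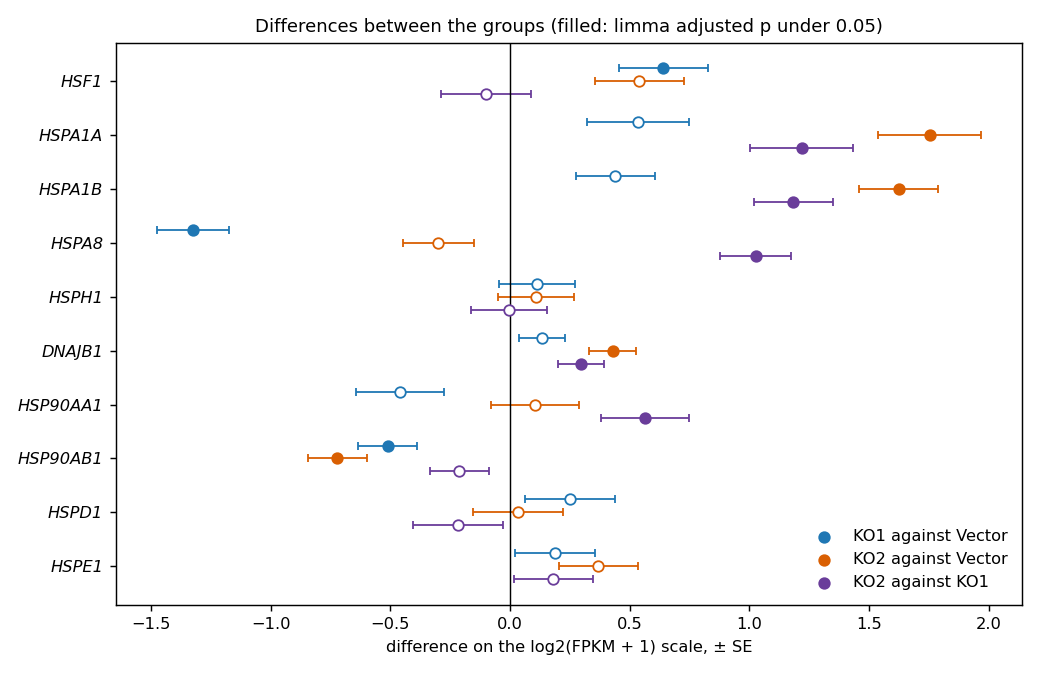
Differences of HSF1 and the 9 heat shock proteins between the groups on the log2(FPKM + 1) scale (x axis, points with ± SE). Blue is KO1 against Vector, orange KO2 against Vector and purple KO2 against KO1, and filled points have a limma adjusted p under 0.05. HSPA1A and HSPA1B lie farthest to the right, at 1.75 and 1.62 in KO2, and HSPA8 in KO1 lies farthest to the left, at -1.32.

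By count, limma called 3 of the 10 genes in KO1 against Vector, 1 higher and 2 lower, where 34.1% of all fitted genes were called, 17.4% higher and 16.7% lower. In KO2 against Vector it called 4 of the 10 genes, 3 higher and 1 lower, where 27.9% of all fitted genes were called, 12.9% higher and 15.0% lower. In KO2 against KO1 it called 5 of the 10 genes, all higher in KO2, where 30.9% of all fitted genes were called, 14.5% higher and 16.4% lower. These shares of 30%, 40% and 50% stand on only 10 genes, 2 of which share most of their sequence. The median difference of the 10 genes was 0.16 in KO1, 0.24 in KO2 and 0.24 between the clones, beside 0.01, -0.00 and -0.02 over all fitted genes. The groups did not overlap for 6 of the 10 genes in KO1 against Vector (50.1% of all fitted genes), 3 higher (26.0%) and 3 lower (24.1%). They did not overlap for 4 in KO2 against Vector (39.0%), 3 higher (18.3%) and 1 lower (20.7%), and for 6 in KO2 against KO1 (53.6%), 5 higher (24.8%) and 1 lower (28.8%). Both knockout comparisons use the same Vector libraries, so they are not independent of each other.

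The counts depend on single libraries. In KO1 the count was 6 without Vector replicate 3 or KO2 replicate 3, and 1 without KO1 replicate 2 or 3. Of all 16426 fitted genes, 7367 and 6435 were called in the former cases, and 3705 and 4004 in the latter. Between the clones the count of the 10 genes was 3 without any 1 library of KO1 or KO2, the 3 being HSPA1A, HSPA1B and HSPA8. In these fits 3337 to 4724 of all fitted genes were called. With Vector replicate 3 and KO2 replicate 3 both left out, the counts were 6, 8 and 8 of the 10 genes in KO1, in KO2 and between the clones, where 56.8%, 49.5% and 47.7% of all fitted genes were called. The scaling mattered for the split of all genes into higher and lower. In KO1, 2865 genes were higher and 2744 lower, against 2214 and 3289 with library-total scaling and 2149 and 3512 with equal medians. Between the clones, 2386 were higher and 2693 lower, against 2905 and 1935 and against 3293 and 1866. Equal medians moved the median of all genes by 0.12 between the clones. The calls of HSPA1A, HSPA1B, HSPA8 and HSP90AB1 given above held under both of these scalings.

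By profile over the 9 libraries, HSPA1A and HSPA1B were each other's nearest gene among 7477 genes averaging at least 5 FPKM, with a root mean square difference of 0.112 on the log2 scale after each gene's mean was removed. The next nearest were CCNA1 and FZD7 for HSPA1A, and CLSTN3 and CACNG8 for HSPA1B. HSPH1 and HSPD1 differed by 0.104, but other genes stood nearer to each: HSPH1 ranked 32 of 7477 for HSPD1, and HSPD1 ranked 92 for HSPH1. The nearest genes were WDR34, RABL6 and ZBTB4 for HSF1, SQLE, SPTLC2 and RIPK1 for HSPA8, HIF1A, FXR1 and YWHAZ for HSP90AA1, and, among others, PRKAG1 and NOLC1 for HSP90AB1. They were PWWP2A, MRPS27 and COPB2 for DNAJB1, C3orf38, CAST and DNTTIP2 for HSPH1, SRP72, FBXO28 and AGFG1 for HSPD1, and C5orf15, TWSG1 and SF3B1 for HSPE1. The nearest of the 10 genes to HSF1 was DNAJB1, at rank 1177. These ranks describe 9 libraries that share their groups.

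The wider chaperone system was read from 70 further genes in 9 lists, of which 58 were fitted. Among them limma called 12 higher and 11 lower in KO1 (39.7%, against 34.1% of all fitted genes), 5 higher and 15 lower in KO2 (34.5%, against 27.9%), and 8 higher and 14 lower in KO2 against KO1 (37.9%, against 30.9%). The median difference was -0.02 in KO1, -0.16 in KO2 and -0.17 between the clones. In KO1 the counts were 13 to 15 without Vector replicate 1 or 2 or KO1 replicate 1 or 2. Of all fitted genes, 3705 to 4299 were called there. In KO2 the counts were 12 or 13 without Vector replicate 1 or 2 or KO2 replicate 1 or 2 (3203 to 3470 of all fitted genes). The count was 32 in KO2 without Vector replicate 3 (6531 of all fitted genes). Between the clones the counts were 10 to 14 without a KO1 library (3337 to 3603 of all fitted genes) and 37 without Vector replicate 3 (6756). With equal medians the split of the wider genes between the clones was 14 higher and 10 lower, beside 3293 and 1866 of all fitted genes. Genes below were named by the smallest p in their list, with exceptions. These are CHORDC1, BAG6 and UBB in KO1, HSPA9, DNAJA3 and CLPX in KO2, and TRAP1 between the clones. They were added after their values were seen, to complete short counts.

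**Figure D5:**
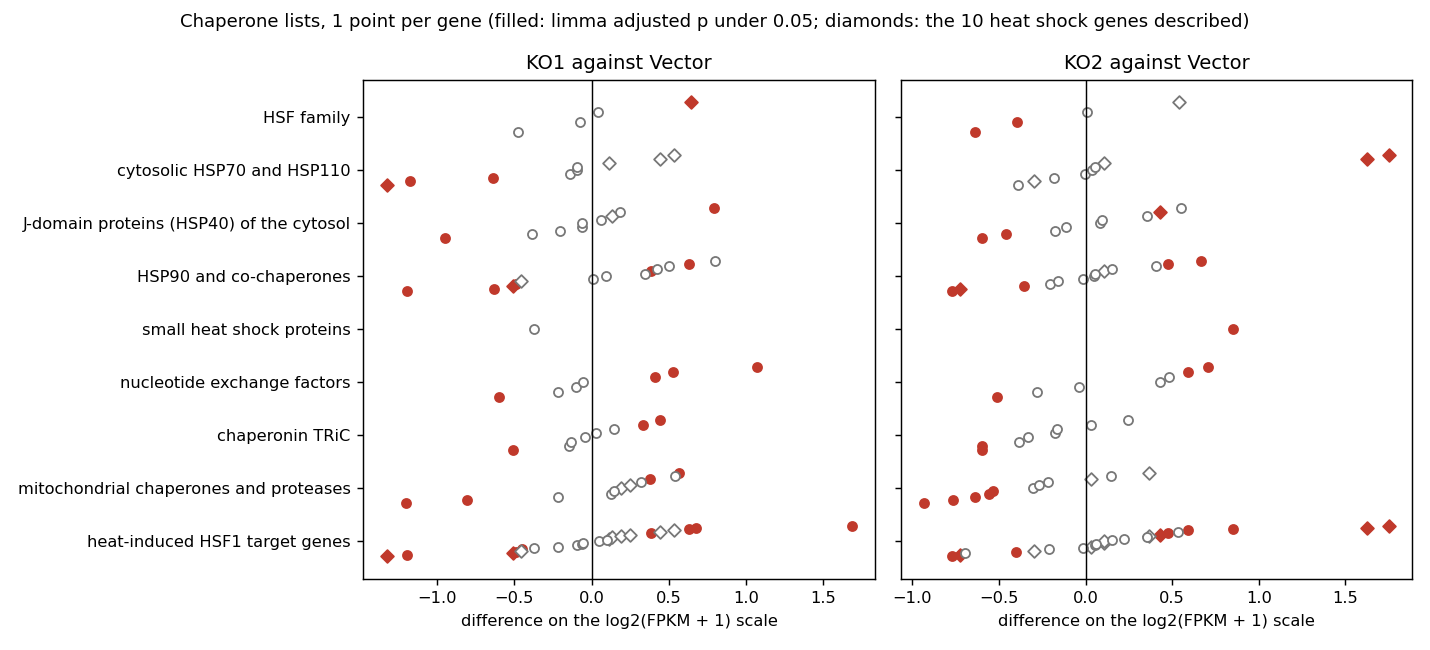
Difference of each fitted chaperone gene on the log2(FPKM + 1) scale (x axis) in KO1 against Vector (left) and KO2 against Vector (right), by list (y axis). Each point is a gene, filled where the limma adjusted p is under 0.05, and diamonds are HSF1 and the 9 heat shock proteins. In KO2 the filled points of the mitochondrial list all lie left of 0, and HSPA1A and HSPA1B lie farthest to the right.

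Among the other cytosolic HSP70 and HSP110 genes, 2 of 5 fitted genes fell in KO1 and none rose (40.0% called, against 34.1% of all fitted genes). HSPA2, an HSP70 best known from the testis, fell in KO1 from 2.27 ± 0.59 to 0.434 ± 0.0484 FPKM (SD, n = 3, limma adjusted p = 0.000263). HSPA4L, an HSP110 relative, fell from 3.79 ± 0.856 to 2.05 ± 0.124 FPKM (limma adjusted p = 0.00884). The strictly inducible HSP70 gene HSPA6 did not pass the filter, with group means of 0.116, 0.274 and 0.0869 FPKM. Of 8 J-domain genes beside DNAJB1, DNAJB2 rose and DNAJB6 fell in KO1, and DNAJB6 and DNAJC2 fell in KO2, 25% called in each clone against 34.1% and 27.9% of all fitted genes. DNAJB6, which keeps polyglutamine proteins from aggregating, was at 17.4 ± 0.939 FPKM in Vector, against 8.52 ± 0.187 in KO1 and 11.1 ± 0.497 in KO2 (limma adjusted p = 5.26e-05 and 0.00109). DNAJB2 differed by 0.79 in KO1, and DNAJC2, a ribosome-bound J protein, by -0.46 in KO2 (limma adjusted p = 0.0109 and 0.0333). The DNAJB2 call ended with neighbours subtracted (0.35, limma adjusted p = 0.158), as did that of DNAJC2 (-0.26, limma adjusted p = 0.2945). The DNAJC2 call was kept only without Vector replicate 3 or KO2 replicate 3, with a limma adjusted p up to 0.108 in the other 7 cases.

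Of 11 HSP90 co-chaperones, 2 rose and 3 fell in KO1 (45.5%, against 34.1% of all fitted genes), and 2 rose and 2 fell in KO2 (36.4%, against 27.9%). AHSA1, which speeds the HSP90 ATPase, was at 28.1 ± 2.41 FPKM in Vector, against 11.7 ± 0.399 in KO1 and 16.5 ± 4.71 in KO2 (SD, n = 3, limma adjusted p = 0.00128 and 0.0142), although its KO2 call was lost without Vector replicate 1 (limma adjusted p = 0.0508). STIP1, the adaptor between HSP70 and HSP90, was at 40.2 ± 3.22 FPKM in Vector, against 62.6 ± 3.20 in KO1 and 56.5 ± 7.34 in KO2 (limma adjusted p = 0.00352 and 0.0158), with the KO2 call lost without Vector replicate 2 (limma adjusted p = 0.0611). The immunophilin FKBP5 fell by 0.63 in KO1 and by 0.35 in KO2 (limma adjusted p = 0.00158 and 0.0303), and its KO2 call was kept only without Vector replicate 3 or KO2 replicate 3 (limma adjusted p up to 0.106 otherwise). FKBP4 rose by 0.38 and CHORDC1 fell by 0.49 in KO1, both lost without Vector replicate 1 or 2 or KO1 replicate 1 or 2 (limma adjusted p up to 0.081 and 0.0783). UNC45A, a myosin chaperone, rose by 0.66 in KO2, lost without Vector replicate 1 or 2 or KO2 replicate 1 or 3 (limma adjusted p up to 0.0829). With neighbours subtracted, AHSA1 differed by -0.455 in KO1 and -0.415 in KO2, STIP1 by 0.40 and 0.175, FKBP4 by 0.11 in KO1 and FKBP5 by -0.38 in KO2, and none of these passed (limma adjusted p = 0.094, 0.129, 0.0545, 0.384, 0.275 and 0.0807).

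HSPB1 (HSP27) was the 1 fitted gene of 9 small heat shock proteins, the other 8 having a mean under 0.5 FPKM. It was at 120.4 ± 31.5 FPKM in Vector, against 91.1 ± 8.35 in KO1 and 216 ± 43.4 in KO2 (SD, n = 3). It rose in KO2 by 0.85 (SE 0.21, limma adjusted p = 0.0144) and was higher in KO2 than in KO1 by 1.22 (SE 0.21, limma adjusted p = 0.00219), the same order as HSPA1A and HSPA1B between the clones. The call against Vector was lost without Vector replicate 1 or 2 or KO2 replicate 1 or 2 (limma adjusted p up to 0.0539). Of 7 nucleotide exchange factors, 3 rose and 1 fell in KO1 (57.1%, against 34.1% of all fitted genes), and 2 rose and 1 fell in KO2 (42.9%, against 27.9%). BAG3, an inducible partner of HSP70 in selective autophagy, was at 27.0 ± 4.65 FPKM in Vector, against 25.8 ± 0.806 in KO1 and 41.0 ± 3.43 in KO2 and rose in KO2 (limma adjusted p = 0.00928). HSPBP1 rose by 1.07 in KO1 and by 0.71 in KO2 (limma adjusted p = 0.00373 and 0.0304), the latter lost without Vector replicate 1 or 2 or any KO2 library (limma adjusted p up to 0.101). BAG5 fell in KO1 by 0.60 and BAG2 in KO2 by 0.51 (limma adjusted p = 0.00431 and 0.00485). BAG1 rose by 0.41 and BAG6 by 0.52 in KO1, both lost without Vector replicate 1 or 2 or any KO1 library, and BAG6 also without KO2 replicate 1 or 2 (limma adjusted p up to 0.112 and 0.145). With neighbours subtracted, BAG5 differed by -0.092 in KO1 and BAG2 by -0.14 in KO2, HSPBP1 by 0.25 in KO2, and BAG1 by 0.14 and BAG6 by 0.43 in KO1, and none of these passed (limma adjusted p = 0.689, 0.215, 0.351, 0.399 and 0.0553). The BAG1 call also ended with equal medians, and that of BAG6 with either other scaling. Without strand information, 44.19% of the BAG2 exon bases overlap exons on the other strand.

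Of the 8 subunits of the chaperonin TRiC, which folds actin and tubulin, 2 rose and 1 fell in KO1 (37.5%, against 34.1% of all fitted genes), and 2 fell in KO2 (25%, against 27.9%). CCT8 fell by 0.51 in KO1 and 0.60 in KO2 (limma adjusted p = 0.016 and 0.0089), and CCT5 fell by 0.60 in KO2 (limma adjusted p = 0.00399). CCT3 and CCT7 rose in KO1 by 0.44 and 0.33 (limma adjusted p = 0.0161 and 0.0417). The KO1 calls were lost for CCT8 without Vector replicate 1 or 2 or KO1 replicate 2 or 3 (limma adjusted p up to 0.0623), for CCT3 without Vector replicate 2 or KO1 replicate 1 or 2 (up to 0.0709), and for CCT7 in every case but without Vector replicate 3 or KO2 replicate 3 (up to 0.162). With neighbours subtracted, CCT3, CCT7 and CCT8 differed by 0.19, 0.30 and -0.17 in KO1 and did not pass (limma adjusted p = 0.271, 0.0733 and 0.16), and CCT7 did not pass with either other scaling.

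Beside HSPD1 and HSPE1, 9 other mitochondrial chaperones and proteases were fitted. Of these, 5 fell in KO2, none rose and 4 did not pass (55.6% lower, against 15.0% of all fitted genes called lower). In KO1, 2 rose and 2 fell (44.4%, against 34.1% called). GRPEL1, the nucleotide exchange factor of mitochondrial HSP70, was at 18.4 ± 0.651 FPKM in Vector, against 15.7 ± 1.22 in KO1 and 9.20 ± 1.116 in KO2 (SD, n = 3, limma adjusted p = 0.000312 in KO2). HSPA9, that HSP70 itself, was at 94.3 ± 10.4 FPKM in Vector, against 102 ± 0.857 in KO1 and 64.5 ± 1.77 in KO2 (limma adjusted p = 0.00526 in KO2). HSCB, which hands iron-sulfur clusters to that system, fell by 1.20 in KO1 and 0.77 in KO2, and CLPX, the unfoldase of the matrix protease CLPP, by 0.81 and 0.56 (limma adjusted p = 0.000197, 0.00321, 0.000975 and 0.00842). DNAJA3, the J-domain partner of HSPA9, differed by 0.38 in KO1 and fell by 0.64 in KO2 (limma adjusted p = 0.0402 and 0.00482). The 5 KO2 calls were kept with each library left out. The KO1 call of DNAJA3 was lost without Vector replicate 1 or 2, any KO1 library or KO2 replicate 2 (limma adjusted p up to 0.137), and its KO1 difference was -0.01 with the neighbours subtracted. LONP1, the main matrix protease, rose by 0.57 in KO1 (limma adjusted p = 0.0462), a call kept only without Vector replicate 3 (limma adjusted p up to 0.154 otherwise). Neither the DNAJA3 nor the LONP1 call in KO1 passed with either other scaling.

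Of 23 fitted genes listed as heat-induced HSF1 targets, 9 of the 10 heat shock genes described above included, 4 rose and 5 fell in KO1 (39.1%, against 34.1% of all fitted genes), and 6 rose and 3 fell in KO2 (39.1%, against 27.9%). Among the 14 that are not heat shock genes described above, IER5, UBB, STIP1 and FKBP4 rose in KO1, and those that fell included AHSA1 and CHORDC1. In KO2, HSPB1, BAG3 and STIP1 rose, and those that fell included AHSA1. IER5, an immediate-early gene whose protein promotes HSF1 activity, was at 3.17 ± 1.09 FPKM in Vector, against 12.1 ± 1.27 in KO1 and 5.02 ± 1.38 in KO2 (SD, n = 3), and rose in KO1 by 1.68 (SE 0.22, limma adjusted p = 0.000414). UBB, which encodes ubiquitin, rose in KO1, from 148 ± 22.9 to 236 ± 28.3 FPKM (limma adjusted p = 0.0104). Without strand information the UBB level is uncertain, since 28.44% of its exon bases overlap exons on the other strand. Exons of other named genes overlap those of further genes too, on either strand. Among them are HSF4 (31.36% of exon bases), CCT5 (30.09%), TRAP1 (29.29%), HSCB (20.59%) and UNC45A (20.05%), so their levels are uncertain as well.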

How the data were processed

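RNA-seq of 9 H1299 libraries was read from the FPKM table the authors deposited. Per the submitters' processing notes, CASAVA 1.6, HISAT2 2.0.5, featureCounts 1.5.0-p3 and build hg38 were used; the sources used here give no strand or multi-mapping options. FPKM times gene length came to whole reads for 100.0% of values (tolerance 0.02), with a depth of 16002212 to 17090445 reads per library. Groups follow the labels. Positions are from GENCODE 29, whose names equalled the table's for 99.95% of genes, and 23132 genes were at 0 in all libraries.

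A limma-trend model (limma 3.58.1, R 4.3.3) was fitted to log2(FPKM + 1) over all 9 libraries for 16426 genes averaging at least 0.5 FPKM, with Benjamini-Hochberg adjustment per comparison and a threshold of 0.05. The model was also run on simulated reads with the same spread in every library. That run does not cover libraries that stand apart, as Vector replicate 3 and KO2 replicate 3 did. Named genes are the 10 members and, per list and clone, up to 2 rising and 2 falling genes with the smallest p; the 10 genes and the lists were chosen with earlier results of these data known. Promoters come from RefSeq (GRCh38.p14) and were searched with Python 3.11.15, pandas 2.3.3 and Biopython 1.88. Alternatives covered the pseudocount, filter, scaling, limma-voom on recovered reads (5978, 4974 and 5501 genes called in KO1, in KO2 and between the clones), 6-library fits, a replicate block, library weights, subtraction of neighbouring genes, the summed HSPA1 pair, a stricter threshold and libraries left out. Same-numbered libraries correlated by -0.31 to 0.31 in their deviations, so the numbers were not taken as pairs. Some genes that the naming rule selects are not reported here.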

Additional observations from a re-analysis of the deposited data

Results flagged for a closer look

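The effects of the 2 clones against Vector differed for the genes below, by the limma test of KO2 against KO1 at an adjusted p under 0.05, a comparison in which 30.9% of all fitted genes were called. Values are log2 differences, positive where KO2 was higher. Among the heat shock genes, HSPA1A differed by 1.22, HSPA1B by 1.18, HSPA8 by 1.03, HSP90AA1 by 0.56 and DNAJB1 by 0.30. The last 2 calls were lost without any 1 library of either clone, with limma adjusted p up to 0.119 for HSP90AA1 and 0.17 for DNAJB1.

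The wider chaperone genes higher in KO2 included HSPB1 by 1.22, HSPA2 by 0.99, BAG3 by 0.65, HSPA4L by 0.63, CHORDC1 by 0.47, HSCB by 0.43 and DNAJB6 by 0.35. Those lower in KO2 included IER5 at -1.15, DNAJA3 at -1.02, LONP1 at -0.78, GRPEL1 at -0.71, HSF2 at -0.68, HSPA9 at -0.66, TRAP1 (the mitochondrial HSP90) at -0.62, UBB at -0.61, CCT5 at -0.55, CCT7 at -0.51, BAG1 at -0.45 and BAG2 at -0.41. Of the mitochondrial list, 5 of 9 fitted genes were thus lower in KO2 than in KO1 and 1 was higher. Over all fitted genes, 16.4% were called lower and 14.5% higher. Leaving out KO1 replicate 1 ended the calls of BAG2 and LONP1 (limma adjusted p = 0.057 and 0.0514), and also those of UBB, CHORDC1, HSCB, DNAJB6, HSF2, TRAP1 and BAG1, which further single libraries of the clones ended too (limma adjusted p up to 0.131 for HSCB). HSCB was also lost without Vector replicate 2. With neighbours subtracted, the calls of BAG1, BAG2, CCT5, DNAJB6, HSCB, HSF2 and TRAP1 ended as well (limma adjusted p = 0.962, 0.406, 0.114, 0.66, 0.45, 0.204 and 0.554).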

How the results depend on the processing

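The calls of HSPA1A and HSPA1B in KO2, HSPA8 in KO1, HSP90AB1 in KO2, and HSPA1A, HSPA1B and HSPA8 between the clones held under each alternative run. Of the 10 genes, limma called 3, 4 and 5 in KO1, in KO2 and between the clones. With single libraries left out the counts were 1 to 6, 4 to 5 and 3 to 5. With library weights they were 7, 7 and 9, and without Vector replicate 3 and KO2 replicate 3 they were 6, 8 and 8. At an adjusted p under 0.01 they were 1 in KO1 and 3 between the clones. Of all 16426 fitted genes, library weights called 10779, 10061 and 9764, and leaving out both libraries called 9335, 8138 and 7834. An adjusted p under 0.01 called 3079, 2362 and 2797 of them. Without a filter 1 of the 10 genes was called in KO1, where 5702 of 35603 genes were called. With the replicate block the count between the clones was 3, and the same-numbered libraries did not correlate best with their own number (5 of 18 checks).

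Of the 58 wider chaperone genes, 23, 20 and 22 were called, with 13 to 30, 12 to 32 and 10 to 37 when single libraries were left out, and 19, 18 and 19 with the replicate block. Library weights gave 39, 47 and 46, both libraries left out 40, 41 and 45, and an adjusted p under 0.01 gave 12, 10 and 10. The numbers of all fitted genes called with library weights, both libraries left out and the stricter threshold are given above. With single libraries left out, 3705 to 7367, 3203 to 6531 and 3337 to 6756 of all fitted genes were called. The replicate block called 4911, 3953 and 4428 of them. Subtracting neighbours gave 12 in KO1, where 4798 of all fitted genes were called. Fits of 6 libraries gave 12 in KO2 and 35 between the clones, where 2963 and 6333 of all fitted genes were called.

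Some differences changed sign, and the causes were not tested. Subtracting neighbours gave, in KO1, HSP90AA1 0.046, DNAJB1 -0.023, HSPH1 -0.30 and DNAJA3 -0.011, in KO2 HSPD1 -0.13 and HSF2 0.036, and between the clones HSP90AB1 0.033, HSPH1 0.57 and BAG1 0.0085. Leaving out Vector replicate 3 and KO2 replicate 3 gave HSPH1 -0.037 in KO1, and HSP90AA1 -0.22, HSPH1 -0.18 and HSPD1 -0.30 in KO2. Library weights gave -0.13, -0.091 and -0.20 for those 3 in KO2. Between the clones, library-total scaling gave HSF1 0.0085 and HSPH1 0.10, and equal medians 0.021 and 0.12. With single libraries left out, HSPH1 ranged from -0.037 to 0.22 in KO1, from -0.042 to 0.22 in KO2 and from -0.14 to 0.080 between the clones, HSP90AA1 from -0.061 to 0.22 in KO2, and HSPD1 from -0.16 to 0.15 in KO2.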
